A study of Homo sapiens with 11 samples.

Results

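DNA replication genes were followed with and without FHD-286 in 2 leukaemia lines, OCI-AML3 and its FLT3-ITD counterpart OCI-AML3-FLT3-ITD. The set held 55 genes chosen by symbol for work at replication origins, at the replication fork or in the supply of deoxynucleotides, and all 55 were found among the 58037 Ensembl identifiers of the count table. All 55 passed the filter on low counts and were among the 18908 genes tested. The lowest count of any of them in a library was 666, for POLE2 in an FHD-286 library of OCI-AML3.

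OCI-AML3 is a human acute myeloid leukaemia line, and FHD-286 blocks the paralogous ATPases BRG1 and BRM, products of SMARCA4 and SMARCA2, which drive SWI/SNF chromatin remodelling complexes. OCI-AML3-FLT3-ITD carries an internal tandem duplication of the receptor tyrosine kinase FLT3; the labels give neither the promoter or construct behind it nor whether the line is 1 clone. Both lines were grown in RPMI medium with fetal bovine serum. The groups were 3 OCI-AML3 control libraries, 3 OCI-AML3 libraries with 100 nM FHD-286 for 16 hours, 3 OCI-AML3-FLT3-ITD control libraries and 2 OCI-AML3-FLT3-ITD libraries with the same dose and time. The labels do not say whether controls received vehicle, nor whether replicates were separate cultures, so p-values measure the spread between these libraries, which may be technical.

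Before S phase, the origin recognition complex, CDC6 and CDT1 load the MCM helicase as an inactive ring on DNA, a step called licensing, which geminin (GMNN) blocks once S phase has begun. Kinases then recruit CDC45 and GINS, which turn the ring into the active helicase, and polymerases work behind it on a sliding clamp, PCNA, loaded by RFC. Many of these genes are transcribed at the boundary of G1 and S phase by E2F factors, which are held back by RB1 and its relatives until cyclin-dependent kinases release them. In bulk RNA, fewer cells in S phase and less RNA per cell cannot be told apart.

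Levels are CPM, that is, counts divided by a library size scaled by TMM factors and set to a common total. Levels per kilobase divide CPM by all bases in any annotated exon of a gene, not by the length of a particular transcript. The order of genes per kilobase therefore depends on the annotation. Total counts ran from 58397190 to 79172389 per library. One library, labelled control 2 of OCI-AML3-FLT3-ITD, stood apart and is called control 2 from here on. Its FLT3 level was 53.4 CPM, against 178 and 203 CPM in the other controls of that line and 41.1 to 43.3 CPM in OCI-AML3 controls. Across genes, its log2 CPM correlated with those of the other OCI-AML3-FLT3-ITD controls at 0.957 and 0.960, and with those of the OCI-AML3 controls at 0.979 to 0.984. It held 49 of the 55 replication genes below both other controls of its line. The share of all genes below both was not computed. Mitochondrial genes took 8.85% of its counts, against 4.48% and 4.82% in those controls. Counts that use it, and most values of named genes in OCI-AML3-FLT3-ITD, are therefore also given without it. Of the myeloid markers, the transcription factor SPI1 was at 271 to 345 CPM in controls. The granule genes ELANE and AZU1 had at least 15548 and 15728 counts in every library. CD33 and CSF3R had at least 2318 and 2443 counts. The granule enzyme gene MPO, by contrast, was at 0.206 to 2.62 CPM and the macrophage gene CD68 at 0.241 CPM or less throughout. Markers of lymphoid, erythroid, epithelial, stromal and endothelial cells summed to between 0.194 and 1.66 CPM, with 8 to 12 of the 15 genes at 0.

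RefSeq promoter windows (build GRCh38.p14, 250 bases before to 50 after each start) were matched by symbol for 47 of the 55 genes, in 64 windows. Both strands were searched for the words TTTCCCGC, TTTCGCGC, TTTGCCGC and TTTGGCGC, which are spelled-out forms of the E2F recognition motif and can overlap. At least 1 word stood in windows of 24 of the 47 genes (51.1%), against 1090 of all 27305 genes with a window (3.99%). Per window of 300 bases the shares were 24 of 64 (37.5%) and 1164 of 35116 (3.31%). The following stretches lie before the start, clear of annotated exons, and are shown because they place these words near genes of licensing, firing, the clamp, the polymerases and the fork. They are written 5' to 3' on the strand of the gene, with the E2F words in capitals. MCM6 lies on the minus strand at chr2:135876482-135876635, PCNA on the minus strand at chr20:5126634-5126721, GMNN on the plus strand at chr6:24775293-24775380, CDC7 on the plus strand at chr1:91501004-91501107, POLA1 on the plus strand at chrX:24693741-24693828 and TIPIN on the minus strand at chr15:66356717-66356791.
MCM6: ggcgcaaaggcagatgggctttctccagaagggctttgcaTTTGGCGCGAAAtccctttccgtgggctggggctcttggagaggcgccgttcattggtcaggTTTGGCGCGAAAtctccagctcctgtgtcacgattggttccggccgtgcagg
PCNA: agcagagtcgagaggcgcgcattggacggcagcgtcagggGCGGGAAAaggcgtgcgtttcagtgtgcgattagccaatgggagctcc
GMNN: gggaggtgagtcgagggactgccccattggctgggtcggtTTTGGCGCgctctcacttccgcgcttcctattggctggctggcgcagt
CDC7: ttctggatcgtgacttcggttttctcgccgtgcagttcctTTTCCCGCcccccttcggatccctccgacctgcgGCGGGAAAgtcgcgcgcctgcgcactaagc
POLA1: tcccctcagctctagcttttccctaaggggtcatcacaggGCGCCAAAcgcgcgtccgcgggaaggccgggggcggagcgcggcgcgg
TIPIN: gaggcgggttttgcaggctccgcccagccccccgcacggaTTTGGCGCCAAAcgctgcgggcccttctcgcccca

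In MCM6, TTTGGCGC overlapped GCGCGAAA, the reverse complement of TTTCGCGC, at 2 places. In TIPIN, TTTGGCGC overlapped its own reverse complement, GCGCCAAA, once, while CDC7 held 1 word on each strand. Shorter sites of 30 bases are shown for GINS2, among the largest falls below, for the loader CDT1, and for a clamp loader, ligase and dUTPase gene. They lie at chr16:85688967-85688996 (GINS2, minus strand), chr16:88803743-88803772 (CDT1, plus), chr13:33818083-33818112 (RFC3, plus), chr19:48170440-48170469 (LIG1, minus) and chr15:48332144-48332173 (DUT, plus).
GINS2: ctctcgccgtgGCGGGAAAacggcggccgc
CDT1: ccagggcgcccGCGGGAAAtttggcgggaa
RFC3: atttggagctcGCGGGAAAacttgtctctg
LIG1: acttcacccctTTTCCCGCcctcctcccat
DUT: gggcggggctgGCGGGAAAtttcggttttg

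Motifs of other factors were searched in the same way. CCAAT, the NF-Y word, stood in windows of 27 of the 47 genes (57.4%, against 39.7% of all genes), while the E-box, CACGTG, stood in 8 (17.0% against 8.77%). TTTGAA, the core of the CHR element of G2 and M phase promoters, stood in 4 (8.51% against 18.2%). The 23 matched genes with no E2F word in their windows included ORC1, CDC45, MCM10, RRM2, CCNE1 and FEN1. A match is a description of letters in a window, not of a bound factor.

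RNA of replication genes fell with FHD-286 in OCI-AML3 in every role. With edgeR's quasi-likelihood test and Benjamini-Hochberg adjustment over all genes tested (threshold 0.05), 50 of the 55 genes fell and 0 rose, while 21.5% of all genes tested fell and 19.8% rose. Log2 fold changes ran from -1.47 for CDC45 to -0.19 for CCNE2, with a median of -0.81 against 0.01 over all genes. Of the members, 19 fell at least 2-fold, and the share of all genes that did so was not computed. In all 55 genes the 3 treated libraries lay below the 3 controls, with no overlap; 33.2% of all genes showed this. The genes that missed the threshold were GINS4, CCNE1, CCNE2, PRIM2 and RPA2. Control 2 enters this comparison through the shared spread, the filter and the scaling factors. Without it all 55 fell, against 29.8% of the 18662 genes then tested.

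With all libraries, the same dose and time moved few of them in OCI-AML3-FLT3-ITD. There 6 genes fell (CDT1, CDC45, MCM2, POLD2, ORC1, POLD3) and 4 rose (CCNE2, DSCC1, RRM2, GINS1). Of all genes, 14.9% fell and 15.6% rose, so with all libraries the members' shares were below the background. The median was -0.04 against -0.02 over all genes. Of the members, 0 changed 2-fold and 41 had log2 fold changes smaller than 0.3 in size. The shares of all genes with changes of these sizes were not computed. Without control 2, 24 of the 55 genes fell and 7 rose, against 24.2% and 24.8% of all genes, with a median of -0.14. The members' share that fell was then above the background, and the share that rose below it. The 10 calls made with all libraries were kept. The split also depended on scaling. With unscaled library totals 13 members rose and 3 fell, while 4032 of the 18908 genes tested rose and 2254 fell. The share of members that rose was then near the background, and the share that fell was below it. That scaling moved the median of all genes to 0.09 and of the members to 0.07.

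The effect of FHD-286 differed between the lines. In the interaction test of edgeR, 36 of the 55 genes had a higher (less negative or positive) log2 fold change in OCI-AML3-FLT3-ITD than in OCI-AML3 and 0 a lower one, against 1.98% and 1.38% of all genes. All 55 differences were above 0, from 0.36 for TYMS to 1.26 for CDC6, with a median of 0.82. Without control 2 the difference was called for 53 genes (9.63% of all genes), all 36 among them, with a median of 0.69; CDT1 and RPA3 missed the threshold. The number of members called stood at 16 to 22 when any 1 OCI-AML3 library was left out. Fewer than with all libraries were also called when either treated OCI-AML3-FLT3-ITD library was left out, which leaves 1 treated library in that line. The number of all genes called for the difference moved with the library left out as well, as given in the section on processing.

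**Figure D1:**
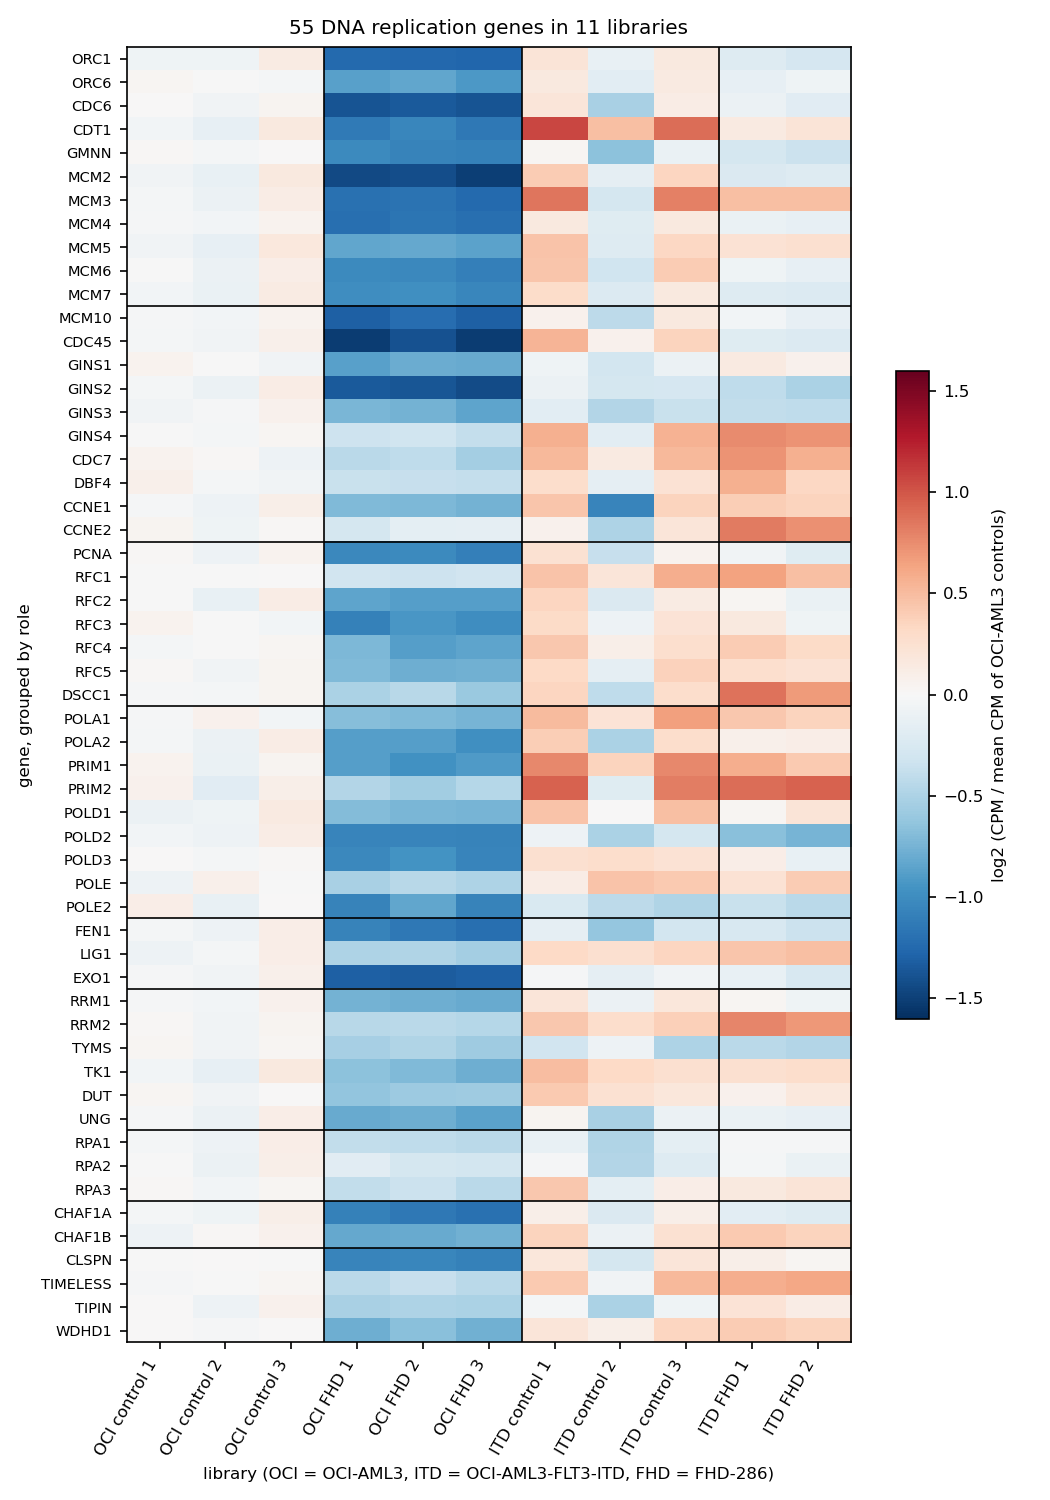
Level of each of the 55 replication genes in each of the 11 libraries, as log2 of the CPM over the mean CPM of the OCI-AML3 controls; blue is lower and red higher, with genes grouped by role. The 3 OCI-AML3 libraries with FHD-286 are blue in nearly every gene, and OCI-AML3-FLT3-ITD control 2 is lower than the other controls of its line in most genes.

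The summed level of the 55 genes showed the same order of groups. It was 6947, 6712 and 7507 CPM in the OCI-AML3 controls and 3792, 3813 and 3693 CPM in their FHD-286 libraries. In OCI-AML3-FLT3-ITD it was 8784, 6309 and 8364 CPM in controls 1, 2 and 3 and 7348 and 7188 CPM with FHD-286. The treated OCI-AML3 libraries lay far below every other library, while the treated OCI-AML3-FLT3-ITD libraries lay between control 2 and the other controls of their line. For 49 of the 55 genes every treated OCI-AML3 library was below every other library. The exceptions were CCNE1, CCNE2, TYMS, RPA1, RPA2 and TIPIN. The share of all genes with this order was not computed.

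**Figure D2:**
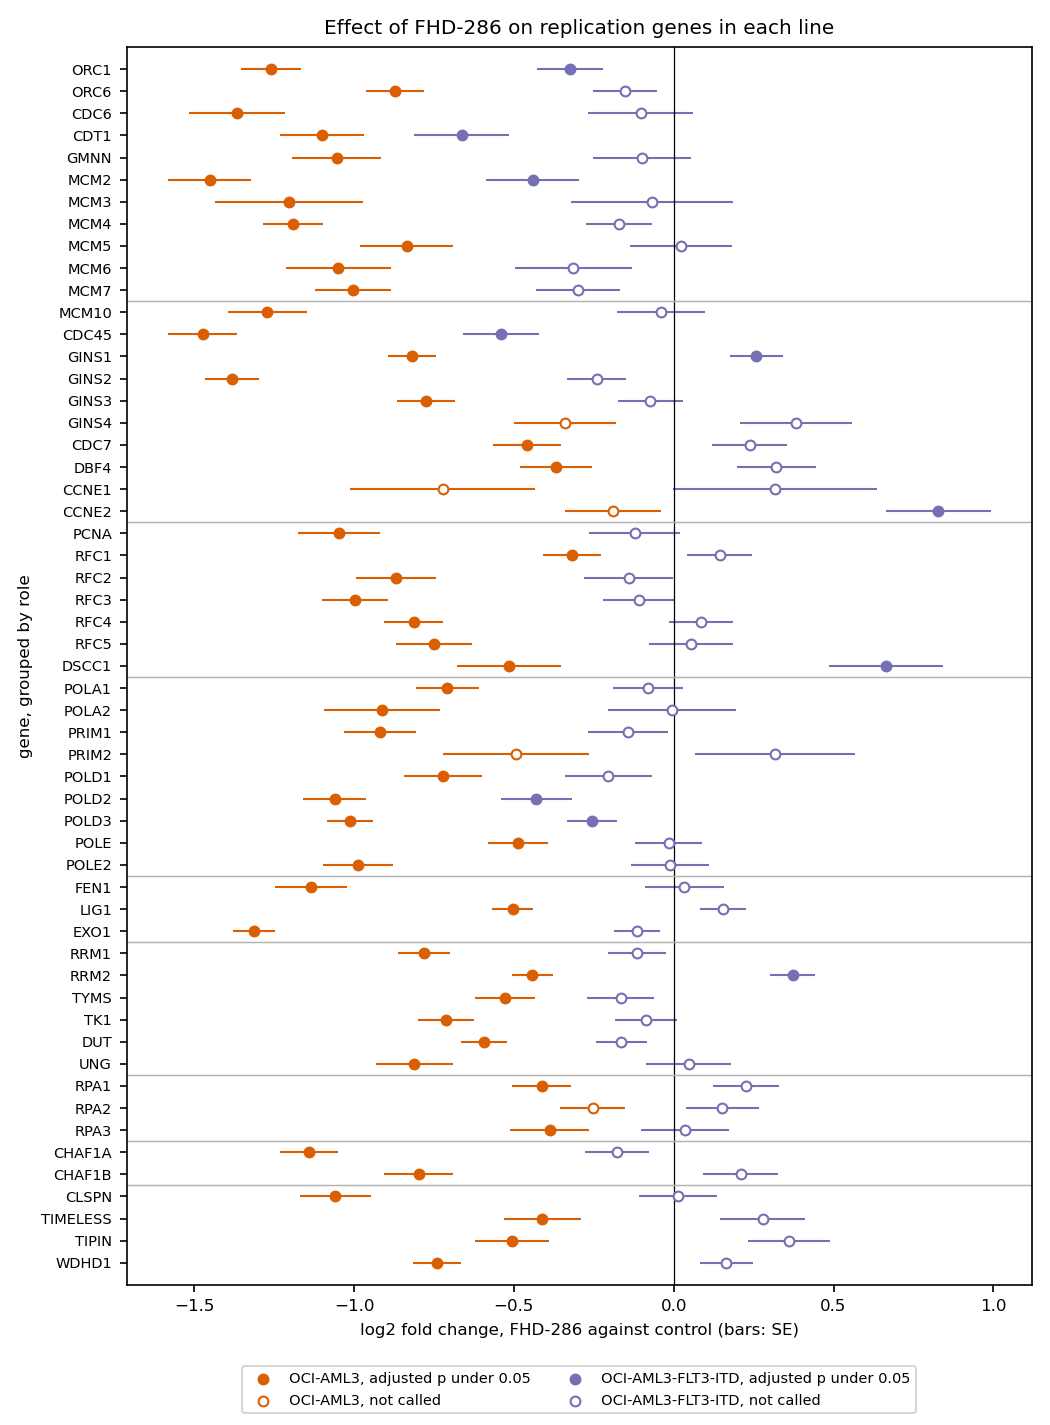
Log2 fold change with FHD-286 in OCI-AML3 (orange) and OCI-AML3-FLT3-ITD (purple) for each replication gene, with bars of 1 SE; filled points passed an adjusted p of 0.05. Every orange point lies below 0, from -1.47 to -0.19, and most purple points lie within 0.3 of 0.

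All 11 licensing genes fell in OCI-AML3, with a median log2 fold change of -1.10. MCM2, a subunit of the MCM helicase ring (chr3:127598223-127622436, GRCh38), was at 394, 378 and 458 CPM in OCI-AML3 controls and at 151, 153 and 145 CPM with FHD-286. The groups were well apart, and the log2 fold change was -1.45 (SE 0.13, edgeR adjusted p = 1.33e-05). In OCI-AML3-FLT3-ITD, MCM2 was at 541, 372 and 518 CPM in controls 1, 2 and 3 and at 349 and 354 CPM with the drug, below all 3 controls. The log2 fold change there was -0.44 (SE 0.15, edgeR adjusted p = 0.0412), or -0.59 without control 2. The lines thus differed by 1.01 in the log2 effect on MCM2 (SE 0.19, edgeR adjusted p = 0.0203), or 0.86 without control 2. Part of MCM2's exon length, 23.6%, overlaps an antisense gene, and without a stated strand setting their reads cannot be told apart.

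CDC6, which helps load MCM, showed the largest difference between the lines. Its level fell from 94.1, 90.3 and 96.9 CPM to 35.9, 37.0 and 36.1 CPM in OCI-AML3. Levels in OCI-AML3-FLT3-ITD were 107, 65.4 and 102 CPM in controls and 87.5 and 82.7 CPM with FHD-286, so the treated libraries lay between control 2 and the others. The log2 effects were -1.37 (SE 0.15, edgeR adjusted p = 4.68e-05) and -0.10 (SE 0.16, edgeR adjusted p = 0.678), a difference of 1.26 (SE 0.22, edgeR adjusted p = 0.0136). Without control 2 the effect in OCI-AML3-FLT3-ITD was -0.30 (edgeR adjusted p = 0.0012) and the difference 1.07. ORC1, the large subunit of the origin recognition complex, fell in both lines, by 1.26 on the log2 scale in OCI-AML3 (SE 0.09, edgeR adjusted p = 3.62e-06) and by 0.32 in OCI-AML3-FLT3-ITD (SE 0.10, edgeR adjusted p = 0.0369). Its levels were 65.2, 65.0 and 74.9 CPM in OCI-AML3 controls and 28.8, 28.5 and 28.3 CPM with the drug, against 79.0, 62.8 and 76.2 CPM and 59.1 and 57.0 CPM in the other line. Without control 2 the effect on ORC1 in OCI-AML3-FLT3-ITD was -0.42 and the difference between the lines 0.84.

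CDT1, the MCM loading factor that is destroyed in S phase, was the licensing gene that fell most in OCI-AML3-FLT3-ITD. It was at 354, 236 and 315 CPM in the controls and at 187 and 194 CPM with FHD-286, a log2 fold change of -0.66 (SE 0.15, edgeR adjusted p = 0.00684). In OCI-AML3 it went from 164, 154 and 188 CPM to 77.3, 82.2 and 76.5 CPM, a log2 fold change of -1.10 (SE 0.13, edgeR adjusted p = 8.58e-05). The difference between the lines in its effect, 0.44 (SE 0.19), did not pass the threshold (edgeR adjusted p = 0.269). Without control 2 the effect in OCI-AML3-FLT3-ITD was -0.81 and the difference 0.29 (edgeR adjusted p = 0.0795). CDT1 was also the gene most raised in the OCI-AML3-FLT3-ITD controls, by 0.84 on the log2 scale over OCI-AML3 controls (SE 0.13, edgeR adjusted p = 0.00192; 0.99 without control 2). Its treated OCI-AML3-FLT3-ITD libraries were therefore at the level of untreated OCI-AML3 or just above it. GMNN, which inhibits CDT1, fell by 1.06 in OCI-AML3 (SE 0.14, edgeR adjusted p = 0.000165) and had a log2 fold change of -0.10 in the other line (SE 0.15, edgeR adjusted p = 0.672), which without control 2 was -0.28 (edgeR adjusted p = 0.00265).

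The other MCM subunits fell together in OCI-AML3, by 1.20 (MCM3), 1.19 (MCM4), 0.84 (MCM5), 1.05 (MCM6) and 1.00 (MCM7) on the log2 scale. In OCI-AML3-FLT3-ITD their log2 fold changes were -0.07, -0.17, 0.02, -0.31 and -0.30, and none passed the threshold with all libraries. Without control 2, MCM3, MCM4, MCM6 and MCM7 fell there, by 0.35, 0.28, 0.52 and 0.43. MCM3 had the widest spread of them, with 582, 266 and 565 CPM in OCI-AML3-FLT3-ITD controls 1, 2 and 3 and 451 and 448 CPM in the treated libraries, against 315, 303 and 348 CPM and 141, 142 and 136 CPM in OCI-AML3. Control 2 alone lay below the treated libraries. Per kilobase of exon, MCM5 was the lowest and MCM7 the highest of the 6 subunits in all 4 groups, with means of 41.6 and 164 CPM per kb in OCI-AML3 controls and 23.3 and 81.9 CPM per kb with FHD-286. The ratio between them was 3.95 and 3.52 in those groups, and 3.61 and 2.89 in OCI-AML3-FLT3-ITD controls and treated libraries. Per kilobase, the order of highest and lowest subunit was thus kept while the levels fell. In counts, MCM7 was also the highest in every library. MCM3, however, lay below MCM5 in the treated OCI-AML3 libraries, and MCM2 lay below MCM5 in the treated libraries of both lines.

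Of the 10 genes of helicase activation and origin firing, 7 fell in OCI-AML3, with a median of -0.75, and the group held the largest and the smallest fall of the set. CDC45, which joins MCM and GINS in the active helicase (chr22:19479459-19520612), went from 79.8, 78.8 and 86.4 CPM to 28.6, 31.0 and 28.5 CPM, a log2 fold change of -1.47 (SE 0.11, edgeR adjusted p = 3.13e-06). In OCI-AML3-FLT3-ITD it was at 119, 85.9 and 104 CPM in controls and at 71.6 and 70.2 CPM with the drug, a log2 fold change of -0.54 (SE 0.12, edgeR adjusted p = 0.00613) and -0.66 without control 2. Treated libraries were below all controls in both lines. The effects differed by 0.93 (SE 0.16, edgeR adjusted p = 0.0118; 0.82 without control 2). MCM10, which acts with CDC45 at firing, fell by 1.27 in OCI-AML3 (SE 0.12, edgeR adjusted p = 2.29e-05) and had a log2 fold change of -0.04 in OCI-AML3-FLT3-ITD (SE 0.14, edgeR adjusted p = 0.86), which without control 2 was -0.20 (edgeR adjusted p = 0.0264).

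The 4 GINS genes had log2 fold changes from -1.38 to -0.34 in OCI-AML3. GINS2 went from 48.1, 45.9 and 53.2 CPM to 19.3, 18.9 and 18.2 CPM in OCI-AML3, the smallest p-value of the group (log2 fold change -1.38, SE 0.08, edgeR adjusted p = 9.81e-07). GINS4 went from 27.6, 27.0 and 28.4 CPM to 22.1, 22.2 and 21.2 CPM, a log2 fold change of -0.34 that missed the threshold (SE 0.16, edgeR adjusted p = 0.113) although the groups did not overlap; without control 2 it passed (edgeR adjusted p = 4.88e-05). In OCI-AML3-FLT3-ITD, GINS1 rose by 0.26 (SE 0.08, edgeR adjusted p = 0.0379), from 50.8, 43.5 and 50.3 CPM to 59.3 and 56.0 CPM, and the log2 fold changes of GINS2 and GINS4 were -0.24 and 0.38. These 3 values were 0.19, -0.28 and 0.18 without control 2, all past the threshold. Per kilobase, GINS2 was the highest of the 4 in both control groups (15.02 and 12.95 CPM per kb), and GINS1 was the highest in both treated groups (7.45 and 14.2 CPM per kb). This change of the highest GINS gene holds per kilobase only. In counts, GINS1 was above GINS2 in every library except OCI-AML3 control 3, which had 2868 against 2961. For GINS3 and GINS4, 10.9% and 23.6% of exon length overlaps another gene.

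The cyclins E, CCNE1 and CCNE2, activate CDK2 at the entry to S phase. CCNE2 was at 16.6, 15.3 and 16.3 CPM in OCI-AML3 controls and at 13.3, 14.5 and 14.6 CPM with FHD-286, the smallest change of the set (log2 fold change -0.19, SE 0.15, edgeR adjusted p = 0.341). In OCI-AML3-FLT3-ITD it rose from 16.9, 11.4 and 18.4 CPM to 28.6 and 26.8 CPM, the largest rise of the set. The treated libraries lay above all 3 controls (log2 fold change 0.83, SE 0.16, edgeR adjusted p = 0.00369; 0.65 without control 2). The lines differed by 1.02 (SE 0.22, edgeR adjusted p = 0.0365; 0.84 without control 2). CCNE2 shares 37.1% of its exon length with another gene, INTS8, so part of its counts may not be its own. CCNE1 went from 42.4, 40.6 and 45.7 CPM to 26.4, 26.0 and 25.5 CPM in OCI-AML3 (log2 fold change -0.72, SE 0.29, edgeR adjusted p = 0.0691). In OCI-AML3-FLT3-ITD, CCNE1 was at 58.5, 20.6 and 54.9 CPM in controls and at 56.5 and 54.8 CPM with the drug. Control 2 held well under the level of the other controls, and without it the log2 fold changes of CCNE1 were -0.72 (edgeR adjusted p = 2.62e-09) and -0.03 (edgeR adjusted p = 0.80).

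CDC7 and its activator DBF4, the kinase that phosphorylates MCM at firing, had smaller falls in OCI-AML3, of 0.46 (SE 0.11, edgeR adjusted p = 0.00569) and 0.37 (SE 0.11, edgeR adjusted p = 0.0223) on the log2 scale. In OCI-AML3-FLT3-ITD their log2 fold changes were 0.24 (SE 0.12, edgeR adjusted p = 0.155) and 0.32 (SE 0.12, edgeR adjusted p = 0.0734). The difference between the lines passed the threshold for CDC7 (0.70, SE 0.16, edgeR adjusted p = 0.0421) and, with all libraries, not for DBF4 (0.69, SE 0.17, edgeR adjusted p = 0.0524). The effects on CDC7 and DBF4 in OCI-AML3-FLT3-ITD without control 2 were 0.12 and 0.20, and the differences, 0.58 and 0.57, both passed.

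All 7 clamp and clamp loader genes fell in OCI-AML3, with a median of -0.81. PCNA, the sliding clamp (chr20:5114953-5126626), was at 291, 272 and 299 CPM in controls and at 141, 141 and 135 CPM with FHD-286, a log2 fold change of -1.05 (SE 0.13, edgeR adjusted p = 0.000101). Levels in OCI-AML3-FLT3-ITD were 341, 223 and 299.7 CPM in controls and 277 and 252 CPM in treated libraries, which lay between control 2 and the others (log2 fold change -0.12, SE 0.14, edgeR adjusted p = 0.559; -0.28 without control 2, edgeR adjusted p = 0.0053). The lines differed by 0.93 (SE 0.19, edgeR adjusted p = 0.0279; 0.77 without control 2). Per kilobase, PCNA had the highest level of the 55 genes in OCI-AML3 controls, at a mean of 195 CPM per kb. CCNE2 had the lowest, at 3.66 CPM per kb. In counts, MCM7 was above PCNA in every library, with 38326 against 15921 in OCI-AML3 control 1.

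Within RFC, the clamp loader, falls in OCI-AML3 ran from 1.00 on the log2 scale for RFC3 (SE 0.10, edgeR adjusted p = 3.11e-05) to 0.32 for RFC1 (SE 0.09, edgeR adjusted p = 0.0169), the large subunit. RFC2 was the highest and RFC5 the lowest of the 5 subunits per kilobase in all 4 groups. DSCC1, a subunit of the alternative loader that serves sister chromatid cohesion, moved in opposite directions in the 2 lines. It went from 21.9, 21.6 and 22.9 CPM to 15.6, 16.3 and 14.6 CPM in OCI-AML3 (log2 fold change -0.52, SE 0.16, edgeR adjusted p = 0.0274). In OCI-AML3-FLT3-ITD it went from 28.2, 16.8 and 26.9 CPM to 40.3 and 35.6 CPM, above all controls (log2 fold change 0.66, SE 0.18, edgeR adjusted p = 0.0175; 0.46 without control 2). The difference was 1.18 (SE 0.24, edgeR adjusted p = 0.0283; 0.98 without control 2).

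Of the 9 polymerase and primase genes, 8 fell in OCI-AML3, with a median of -0.91; PRIM2, the large primase subunit, missed the threshold (log2 fold change -0.49, SE 0.23, edgeR adjusted p = 0.11, and 7.58e-06 without control 2). POLD3, an accessory subunit of DNA polymerase delta, gave the smallest p-value of the group. It was at 52.3, 50.8 and 52.6 CPM in OCI-AML3 controls and at 25.5, 26.7 and 25.0 CPM with the drug (log2 fold change -1.01, SE 0.07, edgeR adjusted p = 2.7e-06). In OCI-AML3-FLT3-ITD it was at 61.8, 62.9 and 61.1 CPM in the controls, control 2 included, and at 56.1 and 47.6 CPM with FHD-286 (log2 fold change -0.26, SE 0.08, edgeR adjusted p = 0.0327; -0.24 without control 2). POLD2, the other accessory subunit among the 55 genes, showed the largest falls of the group in both lines. It went from 231, 224 and 257 CPM to 114, 114 and 113 CPM in OCI-AML3 (log2 fold change -1.06, SE 0.10, edgeR adjusted p = 1.65e-05). It went from 224, 168 and 196 CPM to 149 and 141 CPM in OCI-AML3-FLT3-ITD, below all controls (log2 fold change -0.43, SE 0.11, edgeR adjusted p = 0.0138; -0.53 without control 2). Overlap with other genes takes 35.1% of the exon length of POLA2 and 21.6% of that of PRIM1. The catalytic subunits POLA1, POLD1 and POLE fell by 0.71, 0.72 and 0.49 in OCI-AML3 and had log2 fold changes of -0.08, -0.20 and -0.02 in OCI-AML3-FLT3-ITD, or -0.19, -0.34 and 0.04 without control 2.

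The 3 genes of the nuclease and ligase group fell in OCI-AML3, and all 3 differed between the lines. EXO1, a 5' to 3' exonuclease, gave the smallest p-value of the 55 genes. It went from 75.9, 73.6 and 80.9 CPM to 31.1, 30.6 and 30.9 CPM (log2 fold change -1.31, SE 0.07, edgeR adjusted p = 3.56e-07). Levels in OCI-AML3-FLT3-ITD were 76.1, 69.6 and 73.6 CPM in controls and 70.5 and 64.5 CPM in treated libraries, which overlapped (log2 fold change -0.12, SE 0.07, edgeR adjusted p = 0.267). The difference of 1.20 (SE 0.10, edgeR adjusted p = 0.000746) was also the one with the smallest p, and EXO1 in control 2 lay close to the other controls. FEN1, which trims Okazaki fragment flaps, fell by 1.14 in OCI-AML3 and had a log2 fold change of 0.03 in the other line, a difference of 1.17 (SE 0.17, edgeR adjusted p = 0.00589). LIG1, which seals the fragments, fell by 0.50 and had a log2 fold change of 0.15, a difference of 0.66 (SE 0.10, edgeR adjusted p = 0.00702). Without control 2 the effects in OCI-AML3-FLT3-ITD were -0.15, -0.09 and 0.13 for EXO1, FEN1 and LIG1, none past the threshold, and the differences 1.16, 1.04 and 0.64.

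All 6 genes of nucleotide supply and uracil removal fell in OCI-AML3, with a median of -0.65. RRM2, the regulated subunit of ribonucleotide reductase, moved in opposite directions in the lines. It went from 181, 173 and 185 CPM to 132, 134 and 131 CPM in OCI-AML3 (log2 fold change -0.44, SE 0.06, edgeR adjusted p = 0.000288). In OCI-AML3-FLT3-ITD it went from 243, 218 and 235 CPM to 309 and 291 CPM (log2 fold change 0.37, SE 0.07, edgeR adjusted p = 0.00269; 0.33 without control 2). Neither pair of groups overlapped, and the difference was 0.82 (SE 0.09, edgeR adjusted p = 0.00212; 0.77 without control 2). RRM1, the other subunit, had the larger fall in OCI-AML3, 0.78 (SE 0.08, edgeR adjusted p = 3.34e-05), and a log2 fold change of -0.12 in OCI-AML3-FLT3-ITD (SE 0.09, edgeR adjusted p = 0.368), which without control 2 was -0.20 (edgeR adjusted p = 0.0184). For RRM2, 20.2% of the exon length overlaps another gene. UNG, the uracil glycosylase, fell by 0.81 in OCI-AML3 (SE 0.12, edgeR adjusted p = 0.000363), from 153, 146 and 167 CPM to 89.1, 90.7 and 85.6 CPM. DUT, the dUTPase, had the smallest p-value of the group there, with a fall of 0.59 (SE 0.07, edgeR adjusted p = 9.24e-05); 14.5% of its exon length overlaps another gene.

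TYMS, thymidylate synthase, was the gene in which the lines differed least. It went from 87.0, 81.7 and 86.7 CPM to 59.1, 60.8 and 57.3 CPM in OCI-AML3 (log2 fold change -0.53, SE 0.09, edgeR adjusted p = 0.00117). In OCI-AML3-FLT3-ITD it was at 69.0, 80.6 and 60.2 CPM in controls and at 63.3 and 61.4 CPM with the drug, and the groups overlapped (log2 fold change -0.17, SE 0.11, edgeR adjusted p = 0.265; -0.05 without control 2). The difference of 0.36 missed the threshold with all libraries (SE 0.14, edgeR adjusted p = 0.208) and was 0.48 without control 2 (edgeR adjusted p = 0.0014), where control 2 was the highest of the 3. TYMS overlaps ENOSF1 over 46.6% of its exon length.

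RPA, which coats single-stranded DNA, fell least as a group, with a median of -0.39 and 2 of 3 genes past the threshold. RPA1 fell by 0.41 (SE 0.09, edgeR adjusted p = 0.00476), from 256, 247 and 280.5 CPM to 198, 197 and 193 CPM. RPA2 went from 105, 98.8 and 112 CPM to 92.5, 86.3 and 85.8 CPM, without overlap (log2 fold change -0.25, SE 0.10, edgeR adjusted p = 0.0692, and 0.00193 without control 2). In OCI-AML3-FLT3-ITD the 3 RPA genes had log2 fold changes of 0.23, 0.15 and 0.04, or 0.12, 0.04 and -0.10 without control 2, none past the threshold in either case.

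Both CAF-1 genes, whose products place histones on new DNA, fell in OCI-AML3 and differed between the lines. CHAF1A went from 138, 136 and 151 CPM to 67.1, 64.0 and 61.9 CPM (log2 fold change -1.14, SE 0.09, edgeR adjusted p = 5.55e-06) and was at 151, 121 and 151 CPM and 126 and 123 CPM in OCI-AML3-FLT3-ITD (log2 fold change -0.18, SE 0.10, edgeR adjusted p = 0.208, and -0.28 without control 2, edgeR adjusted p = 0.00265). Among the 4 fork protection genes, all of which fell in OCI-AML3, CLSPN, the checkpoint mediator claspin, moved most, from 72.8, 73.1 and 72.6 CPM to 35.1, 35.3 and 34.5 CPM (log2 fold change -1.06, SE 0.11, edgeR adjusted p = 3.37e-05). Levels in OCI-AML3-FLT3-ITD were 82.6, 59.8 and 83.4 CPM and, with the drug, 77.6 and 74.3 CPM, between control 2 and the others (log2 fold change 0.01, and -0.13 without control 2). WDHD1, which ties polymerase alpha to the helicase, had the smallest p-value of the group (log2 fold change -0.74, SE 0.07, edgeR adjusted p = 2.77e-05). TIMELESS and TIPIN, partners in the fork protection complex, fell by 0.41 and 0.51 in OCI-AML3 and had log2 fold changes of 0.28 and 0.36 in the other line, neither past the threshold, or 0.12 and 0.22 without control 2, where TIPIN passed (edgeR adjusted p = 0.0198); 21.0% of TIPIN's exon length overlaps another gene.

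**Figure D3:**
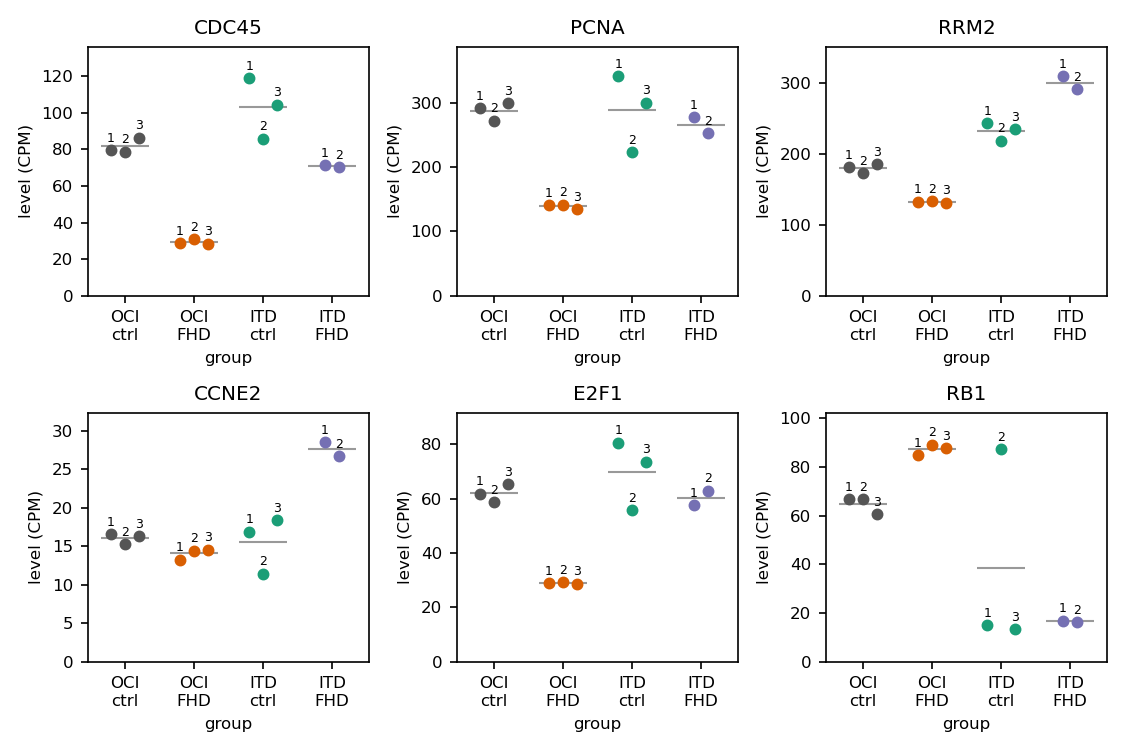
Level in CPM of 4 replication genes, of E2F1 and of RB1 in each library (OCI, OCI-AML3; ITD, OCI-AML3-FLT3-ITD; ctrl, control; FHD, FHD-286); digits are replicate numbers and grey lines group means. CDC45 is lower with FHD-286 in both lines, RRM2 falls in OCI-AML3 and rises in OCI-AML3-FLT3-ITD, and control 2 stands away from controls 1 and 3 most of all in RB1.

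Across the 55 genes, the log2 effects in the 2 lines ranked the genes in a similar order, with a Pearson correlation of 0.72 and a Spearman correlation of 0.71. These describe the genes, which share libraries and are not independent, and carry no test; without control 2 they were 0.76 and 0.78. The genes past the threshold in both lines in the same direction were the 6 that fell in OCI-AML3-FLT3-ITD, and DSCC1, RRM2 and GINS1 passed it in opposite directions. Genes with an E2F word in the promoter window had a median log2 fold change of -0.99 in OCI-AML3 and those without one -0.78; in OCI-AML3-FLT3-ITD the medians were -0.09 and 0.03, and for the difference 0.88 and 0.80. These medians were not tested.

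**Figure D4:**
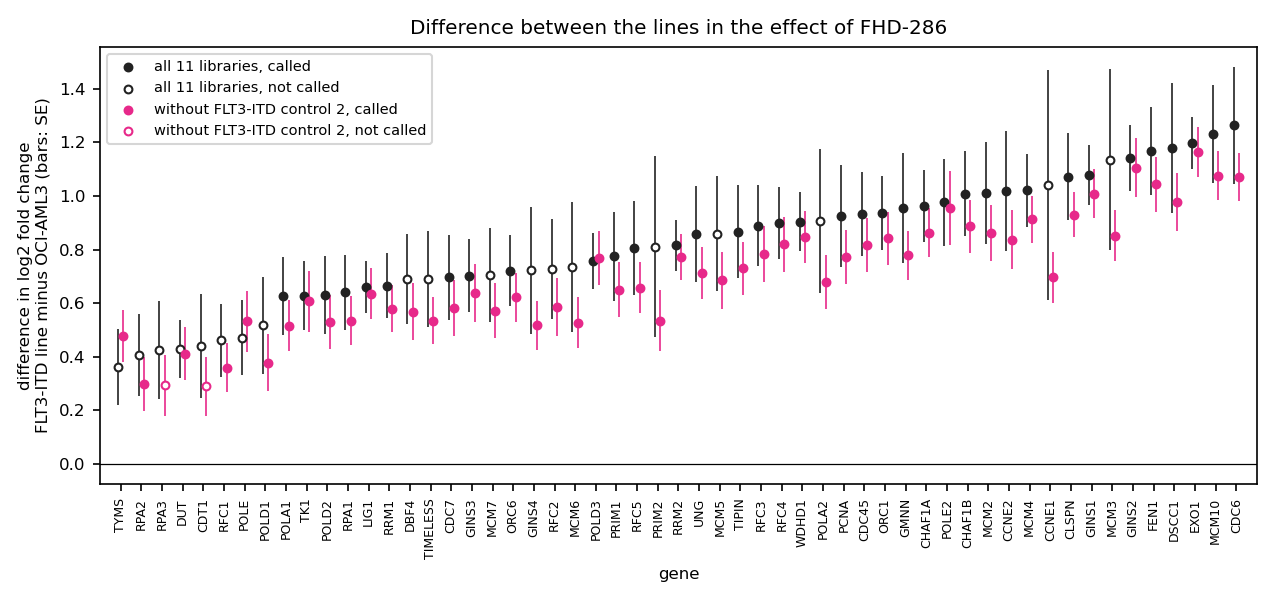
Log2 effect of FHD-286 in OCI-AML3-FLT3-ITD minus that in OCI-AML3 for each replication gene, with bars of 1 SE, from all 11 libraries (black) and without OCI-AML3-FLT3-ITD control 2 (pink); filled points passed an adjusted p of 0.05. All points lie above 0, and 36 genes passed with all libraries and 53 without that library.

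Between the untreated lines the replication genes differed little and in both directions with all libraries, but mostly in 1 direction without control 2. In OCI-AML3-FLT3-ITD controls 13 genes were higher and 4 (GINS3, POLE2, FEN1, TYMS) lower than in OCI-AML3 controls by edgeR, against 14.5% and 13.5% of all genes, with a median difference of 0.11. After CDT1, the primase subunit PRIM1 was raised most, from 32.7, 29.1 and 32.3 CPM to 53.3, 40.2 and 53.6 CPM (log2 difference 0.65, SE 0.11, edgeR adjusted p = 0.00292; 0.77 without control 2). Without control 2, 37 of the 55 genes were higher in OCI-AML3-FLT3-ITD and 5 lower, against 24.1% and 25.4% of all genes, with a median of 0.26. The share of members that were higher was then well above the background.

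Between the treated lines nearly the whole set differed. In FHD-286 libraries 53 of the 55 genes were higher in OCI-AML3-FLT3-ITD and 0 lower, against 14.3% and 11.7% of all genes, with a median log2 difference of 0.99. In all 55 genes both OCI-AML3-FLT3-ITD libraries lay above all 3 OCI-AML3 libraries, which 33.3% of all genes showed. MCM3 had the largest difference, 1.68 (SE 0.25, edgeR adjusted p = 0.00122), and TYMS the smallest, 0.08 (SE 0.10, edgeR adjusted p = 0.636); RPA2, at 0.19, was the other gene that missed the threshold. Control libraries enter this comparison through the shared spread, the filter and the scaling factors. Without control 2 it was called for 54 genes (24.2% of the 18662 genes then tested).

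A further list held 36 replication genes. In OCI-AML3, 23 fell and 3 rose, against 21.5% and 19.8% of all genes, with a median of -0.45. In OCI-AML3-FLT3-ITD 3 fell and 4 rose, against 14.9% and 15.6% of all genes, with a median of 0.03; without control 2, 9 fell and 7 rose, against 24.2% and 24.8%. The difference between the lines was called for 11, all higher in OCI-AML3-FLT3-ITD (1.98% of all genes), and for 25 without control 2 (9.63%). SAMHD1, which breaks down deoxynucleotides, fell most and in both lines. It went from 218, 211 and 225 CPM to 51.6, 53.9 and 54.1 CPM in OCI-AML3 (log2 fold change -2.04, SE 0.07, edgeR adjusted p = 2.45e-08). In OCI-AML3-FLT3-ITD it went from 122, 137 and 127 CPM to 55.3 and 58.5 CPM (log2 fold change -1.18, SE 0.07, edgeR adjusted p = 2.84e-06; -1.13 without control 2). The treated lines ended at much the same SAMHD1 level. TONSL, a repair factor at stalled forks, also fell in both, by 1.45 and 0.78 (-0.87 for the latter without control 2), and CDC25A, the phosphatase that activates CDK2, fell by 1.55 in OCI-AML3 with a log2 fold change of -0.36 in the other line (-0.52 without control 2). CDK2 itself moved in opposite directions, with log2 fold changes of -0.37 (SE 0.09, edgeR adjusted p = 0.00677) and 0.42 (SE 0.10, edgeR adjusted p = 0.00783; 0.32 without control 2). The genes that rose in OCI-AML3 were POLD4, RRM2B and CHTF8.

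Of 10 E2F and DP genes, 5 fell and 0 rose in OCI-AML3 (21.5% and 19.8% of all genes), and 0 fell and 2 rose in OCI-AML3-FLT3-ITD (14.9% and 15.6%). Without control 2, 7 fell in OCI-AML3 (29.8% of all genes), and 3 fell and 3 rose in OCI-AML3-FLT3-ITD (24.2% and 24.8%). E2F1, an activator of S phase genes, went from 61.8, 58.6 and 65.3 CPM to between 28.7 and 29.2 CPM in the 3 treated libraries (log2 fold change -1.10, SE 0.12, edgeR adjusted p = 4.2e-05). In OCI-AML3-FLT3-ITD it was at 80.6, 55.7 and 73.7 CPM in controls and at 57.5 and 63.0 CPM with the drug, between control 2 and the others (log2 fold change -0.22, SE 0.13, edgeR adjusted p = 0.241; -0.36 without control 2, edgeR adjusted p = 0.00053). E2F7 and E2F8, which repress E2F targets, rose there, by 0.97 (SE 0.23, edgeR adjusted p = 0.00873) and 0.36 (SE 0.10, edgeR adjusted p = 0.0206), or by 0.72 and 0.41 without control 2. The difference between the lines was called for E2F1, E2F7 and E2F8, that is, 3 of 10 against 1.98% of all genes, and for 5 without control 2 (9.63%).

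Of the pocket protein and CDK inhibitor genes, 9 of 10 were tested; 4 rose and 1 fell in OCI-AML3, and 4 rose and 0 fell in OCI-AML3-FLT3-ITD. Of all genes, 19.8% rose and 21.5% fell in OCI-AML3, and 15.6% rose and 14.9% fell in OCI-AML3-FLT3-ITD. Without control 2, 6 of these genes rose and 0 fell in OCI-AML3-FLT3-ITD, against 24.8% and 24.2%. CDKN2B, which encodes the CDK4 and CDK6 inhibitor p15, rose most. It went from 1.72, 1.89 and 1.67 CPM to 16.6, 16.4 and 17.6 CPM in OCI-AML3 (log2 fold change 3.26, SE 0.12, edgeR adjusted p = 4.42e-08). In OCI-AML3-FLT3-ITD it went from 1.79, 2.02 and 1.84 CPM to 7.65 and 7.18 CPM (log2 fold change 1.98, SE 0.12, edgeR adjusted p = 2.22e-06; 2.03 without control 2). The controls were alike in both lines, and the rise was smaller by 1.28 in OCI-AML3-FLT3-ITD (SE 0.16, edgeR adjusted p = 0.00397), or by 1.23 without control 2. CDKN1A, the p21 gene, rose by 0.58 and 0.91 (0.75 for the latter without control 2), and RBL1, the pocket protein p107, fell by 0.74 in OCI-AML3 and had a log2 fold change of 0.13 in the other line (-0.01 without control 2).

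RB1, named here after its values were seen, was at 66.9, 66.8 and 60.7 CPM in OCI-AML3 controls and at 85.0, 89.2 and 87.8 CPM with FHD-286. Levels in OCI-AML3-FLT3-ITD were 15.1, 87.4 and 13.4 CPM in controls 1, 2 and 3 and 16.9 and 16.3 CPM with the drug. All libraries of that line except control 2 were thus far below every OCI-AML3 library. The difference between treated lines was -2.39 on the log2 scale (SE 0.69, edgeR adjusted p = 0.028), and between untreated lines -0.75 with all libraries (SE 0.56, edgeR adjusted p = 0.346) and -2.18 without control 2 (edgeR adjusted p = 2.1e-15). RB1 differed between the same lines whose replication genes differed in the drug effect, and its part in that result was not tested.

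Genes of G2 and M phase fell in part in OCI-AML3 and rose in part in OCI-AML3-FLT3-ITD. Of 22, 7 fell and 0 rose in OCI-AML3, against 21.5% and 19.8% of all genes, with a median of -0.26; without control 2, 15 fell, against 29.8%. In OCI-AML3-FLT3-ITD 11 rose and 0 fell, against 15.6% and 14.9% of all genes, with a median of 0.39; without control 2, 15 rose, against 24.8%. Their summed level was 2605, 2602 and 2627 CPM in OCI-AML3 controls and 2259.8, 2261 and 2282 CPM with FHD-286. In OCI-AML3-FLT3-ITD it was 3454, 2952 and 3610.0 CPM in controls and 4503 and 4353 CPM with FHD-286, above every other library. KIF11, a spindle motor, rose most clearly there, from 118, 124 and 127 CPM to 209 and 195 CPM (log2 fold change 0.71, SE 0.07, edgeR adjusted p = 3.48e-05; 0.72 without control 2), and was at 112, 114 and 106 CPM without and 107, 109.6 and 111 CPM with the drug in OCI-AML3 (log2 fold change -0.02). AURKB, the mitotic kinase, fell by 0.77 in OCI-AML3 (SE 0.08, edgeR adjusted p = 3.09e-05). The difference between the lines was called for 10 of the 22, all higher in OCI-AML3-FLT3-ITD (1.98% of all genes), and for all 22 without control 2 (9.63%).

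**Figure D5:**
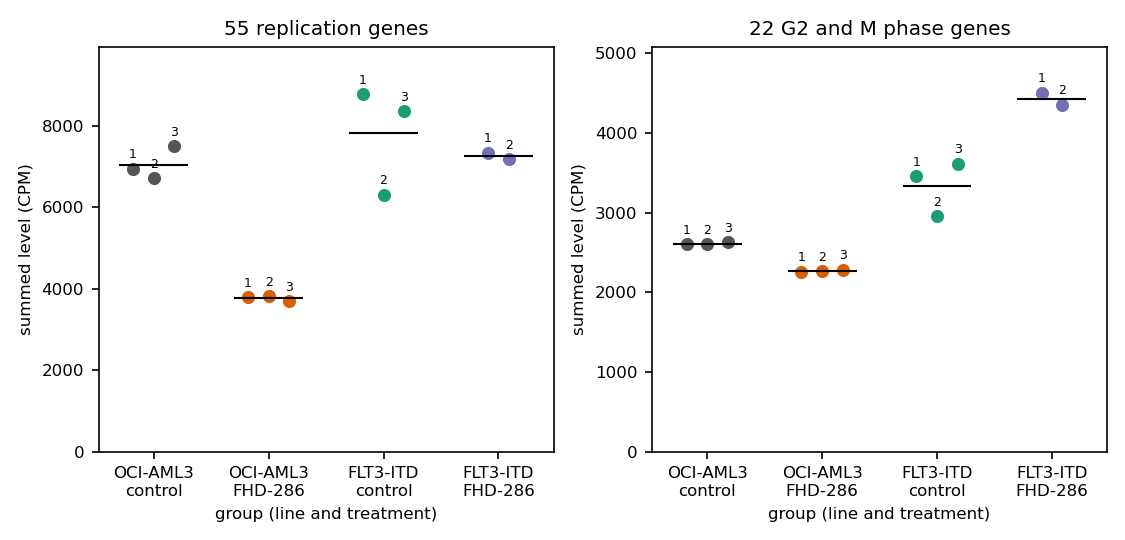
Summed level in CPM of the 55 replication genes (left) and of 22 G2 and M phase genes (right) in each library; digits are replicate numbers and lines group means, and both axes start at 0. Replication genes are lowest in the OCI-AML3 libraries with FHD-286 (3693 to 3813 CPM), and G2 and M phase genes are highest in the OCI-AML3-FLT3-ITD libraries with FHD-286 (4353 and 4503 CPM).

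Myeloid markers moved with the drug in both lines: 6 of 7 fell in each (21.5% and 14.9% of all genes), and their sum went from between 2061 and 2297 CPM to between 1048 and 1058 CPM in OCI-AML3 and from between 1341 and 1607 CPM to 523 and 567 CPM in OCI-AML3-FLT3-ITD. SPI1 fell by 2.84 and 3.62 on the log2 scale (-3.64 in the latter without control 2), further in OCI-AML3-FLT3-ITD, where replication genes fell less. The part of these markers in the replication gene result was not tested. Of the drug targets, SMARCA4 fell by 0.31 in OCI-AML3 and SMARCA2 rose by 0.30 in OCI-AML3-FLT3-ITD (0.24 without control 2); FLT3 did not pass the threshold for an effect of the drug in either line.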

How the data were processed

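RNA-seq from 11 libraries in 4 groups of line and treatment was analysed. The deposited values were raw counts per gene that the authors had not normalised; 57433 of the 58037 identifiers were found in GENCODE 29 and 56993 had a symbol. The submitters' processing notes name STAR and hg38. How reads were assigned to genes, and with which strand setting, is not given in the sources used here.

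Genes were kept with filterByExpr (minimum count 10, minimum total 15). The quasi-likelihood test of edgeR (version 4.0.16, under R 4.3.3) was run with TMM factors, a mean for each group and a common spread (7 residual degrees of freedom), and p-values were adjusted by Benjamini-Hochberg over all genes tested. A gene rose or fell where its adjusted p was under 0.05. SEs were derived from each log2 fold change and its F statistic, as size over root F. The drug effect was tested in each line, then the difference of those effects (an interaction), then the lines against each other without and with the drug. The script was tested on simulated data. Total counts of 58397190 to 79172389 set the depth, and all replication genes had counts of 666 or more.

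Alternatives were DESeq2 1.42.0, other scalings and filters, a fit of only the groups compared, a replicate block and each library left out. The replication genes and other lists were chosen with earlier results of these data known. Any of the 55 genes could be named; values per library are given, in each role, for the gene with the smallest p and the largest change in either line, for genes moving against the majority, and for PCNA, MCM2, CDC45, RRM2, TYMS, CCNE1 and CCNE2. From other lists the 3 smallest p-values per comparison and 1 gene moving against the majority were named. Coordinates of genes are those of GENCODE 29 on GRCh38.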

Additional observations from a re-analysis of the deposited data

Results flagged for a closer look

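These results stand out because the effect of FHD-286 differed between the lines by the interaction test of edgeR. Each value is the log2 fold change with FHD-286 in OCI-AML3-FLT3-ITD minus that in OCI-AML3, so a value above 0 means a smaller fall or a larger rise in OCI-AML3-FLT3-ITD. The value in parentheses is the same difference without OCI-AML3-FLT3-ITD control 2. Among licensing genes the difference was 0.94 (0.84) for ORC1, 0.72 (0.62) for ORC6, 1.26 (1.07) for CDC6, 0.96 (0.78) for GMNN, 1.01 (0.86) for MCM2 and 1.02 (0.91) for MCM4. Among genes of helicase activation and firing the difference was 1.23 (1.08) for MCM10, 0.93 (0.82) for CDC45, 1.08 (1.01) for GINS1, 1.14 (1.11) for GINS2, 0.70 (0.64) for GINS3, 0.70 (0.58) for CDC7 and 1.02 (0.84) for CCNE2. Among clamp and loader genes the difference was 0.93 (0.77) for PCNA, 0.89 (0.78) for RFC3, 0.90 (0.82) for RFC4, 0.80 (0.66) for RFC5 and 1.18 (0.98) for DSCC1. Among polymerase and primase genes the difference was 0.63 (0.52) for POLA1, 0.78 (0.65) for PRIM1, 0.63 (0.53) for POLD2, 0.76 (0.77) for POLD3 and 0.98 (0.96) for POLE2. Among nuclease and ligase genes the difference was 1.17 (1.04) for FEN1, 0.66 (0.64) for LIG1 and 1.20 (1.16) for EXO1. Among nucleotide genes the difference was 0.67 (0.58) for RRM1, 0.82 (0.77) for RRM2, 0.63 (0.61) for TK1 and 0.86 (0.71) for UNG. Among RPA and CAF-1 genes the difference was 0.64 (0.53) for RPA1, 0.96 (0.86) for CHAF1A and 1.01 (0.89) for CHAF1B. Among fork protection genes the difference was 1.07 (0.93) for CLSPN, 0.87 (0.73) for TIPIN and 0.90 (0.85) for WDHD1. 

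Outside the 55 genes, only part of the genes called is listed here. The difference was 0.86 (0.91) for SAMHD1, 0.67 (0.59) for TONSL, 1.19 (1.03) for CDC25A, 0.94 (0.85) for DTL, 0.73 (0.72) for MCM8, 0.79 (0.69) for CDK2 and 0.61 (0.62) for TOPBP1 in the further replication list. It was 0.88 (0.74) for E2F1, 1.34 (1.1) for E2F7 and 0.80 (0.86) for E2F8 among E2F genes, -1.28 (-1.23) for CDKN2B and 0.88 (0.73) for RBL1 among CDK inhibitor and pocket protein genes, and 0.77 (0.77) for NUSAP1, 0.73 (0.74) for KIF11, 0.60 (0.58) for AURKB and 0.60 (0.51) for BUB1 in G2 and M phase. CDKN2B is the gene here whose drug effect, a rise, was smaller in OCI-AML3-FLT3-ITD; the others were higher there. Without OCI-AML3-FLT3-ITD control 2 all 36 replication genes kept this call, and the number called with a library left out ran from 9 to 53.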

How the results depend on the processing

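The fall in OCI-AML3 and the rise of OCI-AML3-FLT3-ITD over OCI-AML3 with the drug kept their direction and stayed within 1.5 times of their counts under every alternative run. Leaving out 1 library at a time gave 45 to 55 genes lower and 0 higher in OCI-AML3, 46 to 54 higher and 0 lower between treated lines, 2 to 7 higher and 1 to 24 lower in OCI-AML3-FLT3-ITD, 9 to 53 higher and 0 lower for the difference between the lines, and 8 to 37 higher and 0 to 7 lower between untreated lines. The effect in OCI-AML3-FLT3-ITD gave 13 higher and 3 lower with library totals, and 0 higher and 0 lower when only its own groups were fitted. Untreated lines gave 17 higher and 0 lower with library totals, 1 lower with no filter, and 8 higher and 0 lower with only their own groups. CDC6 turned sign and passed the threshold on the other side between untreated lines, with -0.04 with all libraries, 0.16 without OCI-AML3-FLT3-ITD control replicate 2 and from -0.16 to 0.16 over all libraries left out in turn. Signs of values that passed no threshold turned too: effects above 0 in OCI-AML3-FLT3-ITD numbered 24 with all libraries and 18 to 34 over the alternatives, and differences above 0 between untreated lines 38 and 29 to 43. Where an alternative moved a value, the cause was not tested.

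Over all genes, calls in OCI-AML3-FLT3-ITD (5767) went to 1618 with only its groups and to 2908 to 9140 with a library left out. Calls of the difference (635) went to 1441 with DESeq2, with which 44 replication genes were called, and to 105 to 3177. Untreated lines (5289) went to 1736 and to 2914 to 9223, and treated lines (4916) to 9581 and to 1909 to 8756. Library totals changed the split of higher and lower genes from 3742 and 4074 to 5161 and 3025 in OCI-AML3 (median of all genes 0.17), from 2957 and 2810 to 4032 and 2254 in OCI-AML3-FLT3-ITD, and from 2738 and 2551 to 3457 and 1648 between untreated lines, where the upper quartile gave 3282 and 1957. For the difference the upper quartile gave 308 and 374, against 375 and 260.

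Correlations of deviations over 10 same-numbered pairs ran from -0.03 to 0.12, and the main test used no pairing. The 2 treated OCI-AML3-FLT3-ITD libraries have mirror-image deviations, so these correlations cannot decide whether samples were paired there. With the replicate block, 3 replication genes fell and 4 rose in OCI-AML3-FLT3-ITD, and the difference was called for 30 replication genes and 349 genes in all. The biological coefficient of variation was 0.193, and 0.0652 without control 2.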

Other observations

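Some replication genes outside the 55 differed between the lines in the opposite direction to most. Between untreated lines, POLE3, a histone fold subunit of DNA polymerase epsilon, was lower in OCI-AML3-FLT3-ITD, at 132, 111 and 119 CPM against 189.95, 178 and 201 CPM (log2 difference -0.65, SE 0.08, edgeR adjusted p = 0.000551). SAMHD1 was lower too (-0.76, SE 0.06, edgeR adjusted p = 0.000146), while PCLAF, a partner of PCNA, was higher, at between 33.2 and 41.9 CPM against 22.2 to 24.0 CPM (0.74, SE 0.11, edgeR adjusted p = 0.00157). Without control 2 these differences were -0.59, -0.81 and 0.70. Between treated lines 23 of the 36 were higher in OCI-AML3-FLT3-ITD and 2 lower, against 14.3% and 11.7% of all genes. The lower ones were RNASEH2C (-0.43, SE 0.09, edgeR adjusted p = 0.00579) and CHTF8. MCM8, DTL and TOPBP1 were higher by 1.04, 1.23 and 0.90 on the log2 scale. In control 2 of OCI-AML3-FLT3-ITD, PCLAF and POLE3 lay with the other controls of its line, unlike FLT3 and RB1.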
